A study of Mus musculus with 38 samples.

Results

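The 38 genes described here encode targets of the hypoxia-inducible factor (HIF), parts of its oxygen sensor and enzymes of glycolysis. They were chosen by name from the Ensembl mouse genes of 2 RNA-seq count tables, by a rule that uses no measured value but was set with earlier results of these data known, and are 38 of 55487 genes. Of the 39 rows that carry these symbols, the second Aldoa row held at most 24 counts in any tumor and was left aside. All 38 passed the filter on low counts in tumors and in cell lines. The tables held 34 omental tumors and 4 cultures of 2 mouse models of high-grade serous ovarian cancer (HGSOC): 60577, grown in female FVB mice, and HGS2, grown in female C57BL/6J mice. Treated mice received 3 weekly intraperitoneal doses of carboplatin at 20 mg/kg with paclitaxel at 10 mg/kg, and control mice received the vehicle. Per the paper, dosing began 3 weeks after cell injection for 60577 and 7 weeks after it for HGS2. Between the models, cell line, host strain and time since injection therefore differ together and cannot be told apart. Tumors were taken 1 day (TP1), 7 days (TP2) or 21 days (TP3) after the last dose. At TP3 only treated tumors were sequenced, so TP3 was set against TP2 controls and treatment cannot be told apart from time there. Group sizes were 3 for 60577 TP1 control, TP1 treated and TP2 control, 4 for 60577 TP2 treated and TP3 treated, 3 for HGS2 TP1 control, TP1 treated and TP2 treated, 4 for HGS2 TP2 control and TP3 treated, and 2 cultures of each untreated cell line. Each model rests on a single cell line, whose engineered alleles are not given in the sources used here. The sequenced RNA came from the whole frozen tumor piece, with the host cells in it.

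When oxygen is plentiful, prolyl hydroxylases of the Egln family mark the HIF alpha subunits for destruction. When it falls, Hif1a protein accumulates and switches on genes that bring in glucose, run it through glycolysis to lactate, export the acid and call in blood vessels. HIF binds DNA at a hypoxia response element, whose core holds the letters ACGTG. Hif1a itself is governed mostly at the level of its protein, so its RNA is not a readout of its activity. Solid tumors that outgrow their vessels are known to express this program.

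The 6 promoters below were printed because these genes hold ACGTG on either strand (capitals: ACGTG, or CACGT, which is ACGTG read on the other strand) in the 250 bases before a start site, and because they passed the test in the most of the 16 comparisons (7 for Slc16a3 and Aldoa, 5 for the other four). Mxi1 and Ldha, with the motif and 5 comparisons too, had smaller largest changes and are not shown. The windows are RefSeq sequences of GRCm38.p6, 5′ to 3′ on the strand of the gene. Slc16a3, the lactate exporter, lies on the plus strand with its window at chr11:120948817-120949066. Aldoa, a glycolytic aldolase, lies on the minus strand at chr7:126799255-126799504. Car9, a cell surface carbonic anhydrase that handles acid, lies on the plus strand at chr4:43506776-43507025. Hilpda, a lipid droplet protein, lies on the plus strand at chr6:29272376-29272625. Slc2a1, the glucose importer GLUT1, lies on the plus strand at chr4:119108495-119108744. Ddit4, an inhibitor of mTOR signaling, lies on the minus strand at chr10:59951771-59952020.
Slc16a3: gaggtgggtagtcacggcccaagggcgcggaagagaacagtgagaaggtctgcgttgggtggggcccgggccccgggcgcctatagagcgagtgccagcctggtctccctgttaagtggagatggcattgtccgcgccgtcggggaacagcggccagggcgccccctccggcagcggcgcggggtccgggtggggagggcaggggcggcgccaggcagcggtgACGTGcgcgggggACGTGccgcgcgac
Aldoa: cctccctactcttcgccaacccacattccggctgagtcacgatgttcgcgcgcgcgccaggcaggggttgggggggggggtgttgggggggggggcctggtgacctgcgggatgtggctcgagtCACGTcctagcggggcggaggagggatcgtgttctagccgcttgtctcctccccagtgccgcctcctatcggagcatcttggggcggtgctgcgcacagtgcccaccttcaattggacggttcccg
Car9: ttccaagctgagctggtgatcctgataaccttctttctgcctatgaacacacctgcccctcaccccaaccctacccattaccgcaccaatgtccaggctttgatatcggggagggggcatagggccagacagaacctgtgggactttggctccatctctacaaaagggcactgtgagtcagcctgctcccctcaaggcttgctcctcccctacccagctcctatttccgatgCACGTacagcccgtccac
Hilpda: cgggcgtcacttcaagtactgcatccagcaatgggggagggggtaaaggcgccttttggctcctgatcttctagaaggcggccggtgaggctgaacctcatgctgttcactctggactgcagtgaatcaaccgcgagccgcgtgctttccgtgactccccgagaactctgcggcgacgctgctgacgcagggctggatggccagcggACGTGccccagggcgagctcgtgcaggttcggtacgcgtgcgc
Slc2a1: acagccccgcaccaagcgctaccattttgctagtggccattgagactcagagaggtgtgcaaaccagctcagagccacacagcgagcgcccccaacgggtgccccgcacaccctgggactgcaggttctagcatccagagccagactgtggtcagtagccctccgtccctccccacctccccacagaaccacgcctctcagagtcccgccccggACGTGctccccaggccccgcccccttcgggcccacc
Ddit4: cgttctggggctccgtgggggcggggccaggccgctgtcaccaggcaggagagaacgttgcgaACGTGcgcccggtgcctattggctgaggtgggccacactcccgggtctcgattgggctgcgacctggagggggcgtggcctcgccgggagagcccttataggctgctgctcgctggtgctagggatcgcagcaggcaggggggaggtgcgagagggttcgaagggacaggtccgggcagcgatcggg

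In the Slc16a3 window the motif began 27 and 14 bases before the start site. It began 18 bases before it in Car9, 36 in Slc2a1, 43 in Hilpda, 126 in Aldoa and 187 in Ddit4. A window was found for 36 of the 38 genes, and for none of Bhlhe40 and Ndrg1. Of these 36, 23 held the motif in at least 1 of their windows (63.9%), against 18.5% of all 27025 genes with a window. Counted by window, the shares were 48.1% of 54 and 16.6% of 32851. The windows of the members were richer in G and C, with a median of 63.8% against 52.4%. A match is a description of letters and does not show that a factor bound there.

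Totals ranged from 17839641 to 49299421 counts in the tumors and from 31633099 to 42461989 in the cell lines. Several libraries stood apart. In 60577 TP2 control replicate 2, 37 of the 38 genes had their highest level of the 3 controls, and 31 were more than 2 times the mean of the others. Of all genes tested, 31.5% were highest in that library and 2.97% exceeded the others by more than 2 times. The 38 genes took 2.183% of its counts, while their share in the other 5 controls of this model was between 0.8193% and 0.94%. Its B cell markers were at a median of 0.163 times the mean of its fellow controls, T cell markers at 0.0732, endothelial markers at 0.163, neutrophil markers at 3.07 and epithelial markers at 1.14. Counts of members that rest on this library are given also without it, and so are many single values. In HGS2, 3 libraries carried pancreatic acinar markers at 56430 to 107400 CPM (counts per 1000000 counts), namely TP1 control replicate 3, TP2 control replicate 2 and TP3 treated replicate 2. HGS2 TP3 treated replicate 1 was left out of the tests because the study's own tables do not list it. Values of it are printed where it stood apart. With it included, 0 members passed in HGS2 still, the members' median went from -0.05 to -0.188 for TP3 against TP2 controls and from 0.212 to -0.008 for treated TP3 against TP2, and the count of members whose TP2 response differed between the models went from 22 to 17. Epithelial markers were found in all tumors, at a summed 51.49 to 1117 CPM in HGS2 and 435.2 to 3448 CPM in 60577.

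**Figure D1:**
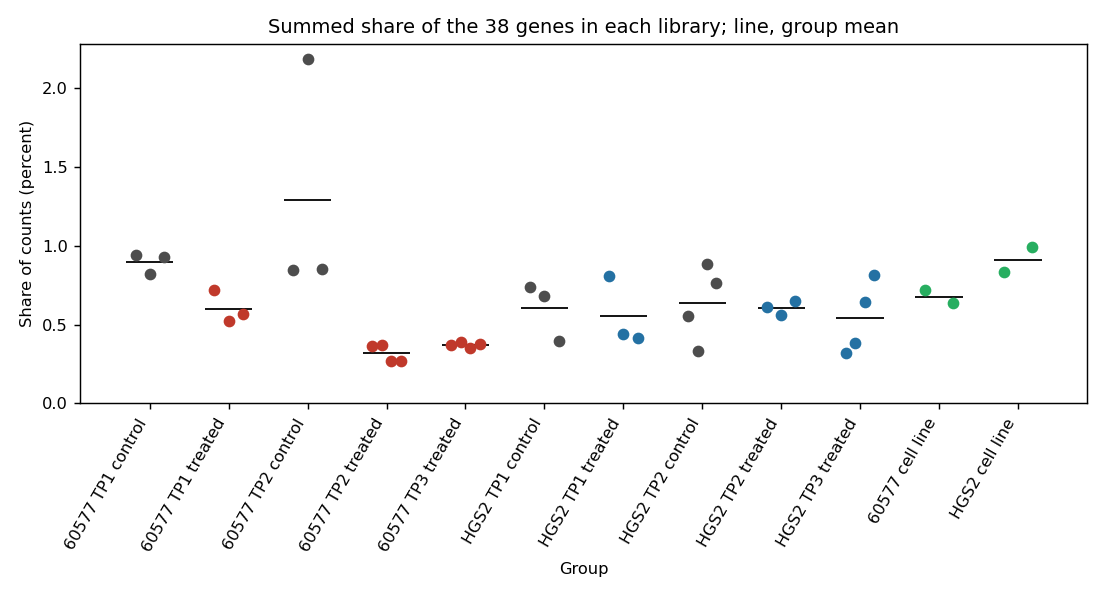
Share of all counts taken by the 38 genes in each library (y axis, percent), by group (x axis). Points are libraries, lines are group means; gray, control tumors; red, treated 60577; blue, treated HGS2; green, cell lines. The highest point, at 2.183%, is 60577 TP2 control replicate 2, and the treated 60577 tumors of TP2 and TP3 lie between 0.2677% and 0.3902%.

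A gene passed when the Benjamini-Hochberg adjusted p of edgeR's quasi-likelihood test was below 0.05 over all genes tested (16241 in tumors, 13742 in cell lines). Log2 fold changes are given with their standard error (SE). In whole tumors, fewer cells of a type and less RNA per cell cannot be told apart.

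In 60577 tumors 1 day after chemotherapy, 10 of the 38 genes were lower than in controls and 2 were higher, against 16.2% and 17.1% of all genes tested, and the median log2 fold change of the members was -0.41. The decreases were spread over several roles: both surface carbonic anhydrases, the lactate exporter, an oxygen sensor, a minor aldolase and several stress and transcription genes. Car9 read 66.8, 51.2 and 51.2 CPM in the 3 controls and 11.4, 9.45 and 6.13 CPM in the 3 treated tumors. The groups did not overlap, and Car9 fell by 2.64 on the log2 scale (SE 0.40, adjusted p = 0.000189). All treated tumors lay below all controls for 19 of the 38 genes and 29.9% of all genes tested. They lay above all controls for 5 of the 38 and 26% of all genes. Aldoc, an aldolase best known from brain, changed by -1.28 (SE 0.33, adjusted p = 0.00794). Ndrg1, a stress-induced growth regulator, changed by -1.17 (SE 0.32, adjusted p = 0.0120). Egln3, the prolyl hydroxylase that HIF itself induces, changed by -1.09 (SE 0.37, adjusted p = 0.0348), and Car12, a second surface carbonic anhydrase, by -1.08 (SE 0.21, adjusted p = 0.00137). Slc16a3, Ddit4, Mxi1, Pdk1 and Kdm3a fell by 0.67 to 1.00.

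The 2 genes that rose at TP1 both govern the use of glucose. Ppp1r3c directs a phosphatase to glycogen, and Pfkfb4 makes and breaks the sugar phosphate that paces glycolysis. Ppp1r3c read 4.82, 3.70 and 3.53 CPM in controls and 11.8, 10.7 and 12.1 CPM in treated tumors. It was higher in every treated tumor, by 1.53 (SE 0.25, adjusted p = 0.000376). Pfkfb4 rose by 0.88 (SE 0.20, adjusted p = 0.0042). Most glycolytic enzymes did not pass: 11 of 12, all but Aldoc, among them Aldoa (-0.04, SE 0.30), Ldha (-0.17, SE 0.34) and Hk2 (0.17, SE 0.41). Vegfa, the main growth factor of blood vessels, read 429, 330 and 397 CPM in controls and 274, 150 and 189 CPM in treated tumors, which do not overlap, but its change of -0.91 (SE 0.41) did not pass (adjusted p = 0.106). In treated replicate 1, 33 of the 38 genes were at the highest level of the 3 treated tumors, against 27.4% of all genes tested. Without treated replicate 2 the number of members that passed fell from 12 to 6, without treated replicate 3 it fell to 7, and with only these 2 groups in the fit it was 22. Of all genes tested, 33.3% passed with all tumors, and 27.2%, 25.7% and 41.2% in these fits, in that order.

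At 7 days after the last dose nearly the whole set was lower in treated 60577 tumors: 34 of the 38 genes fell and 1 rose, against 29.2% lower and 29.2% higher of all genes tested. The median log2 fold change was -1.99, and 31 genes fell by more than 1. All 3 oxygen sensing genes, both transporters, all 12 glycolytic enzymes and all 12 genes of the mitochondrial, stress and transcription group passed in this direction. These sizes lean on the library described above. Without TP2 control replicate 2, 30 fell and 2 rose, the median was -1.32, and 31 of the 35 genes that had passed still passed. The 4 that did not were Ankrd37, Bnip3, Hif1a and Pfkp. Without that library 24% of all genes tested were higher and 24.5% lower. With all 3 controls, every treated tumor lay below every control for 30 of the 38 genes and 25.4% of all genes tested. Every treated tumor lay above every control for 1 of the 38 and 25.1% of all genes.

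**Figure D2:**
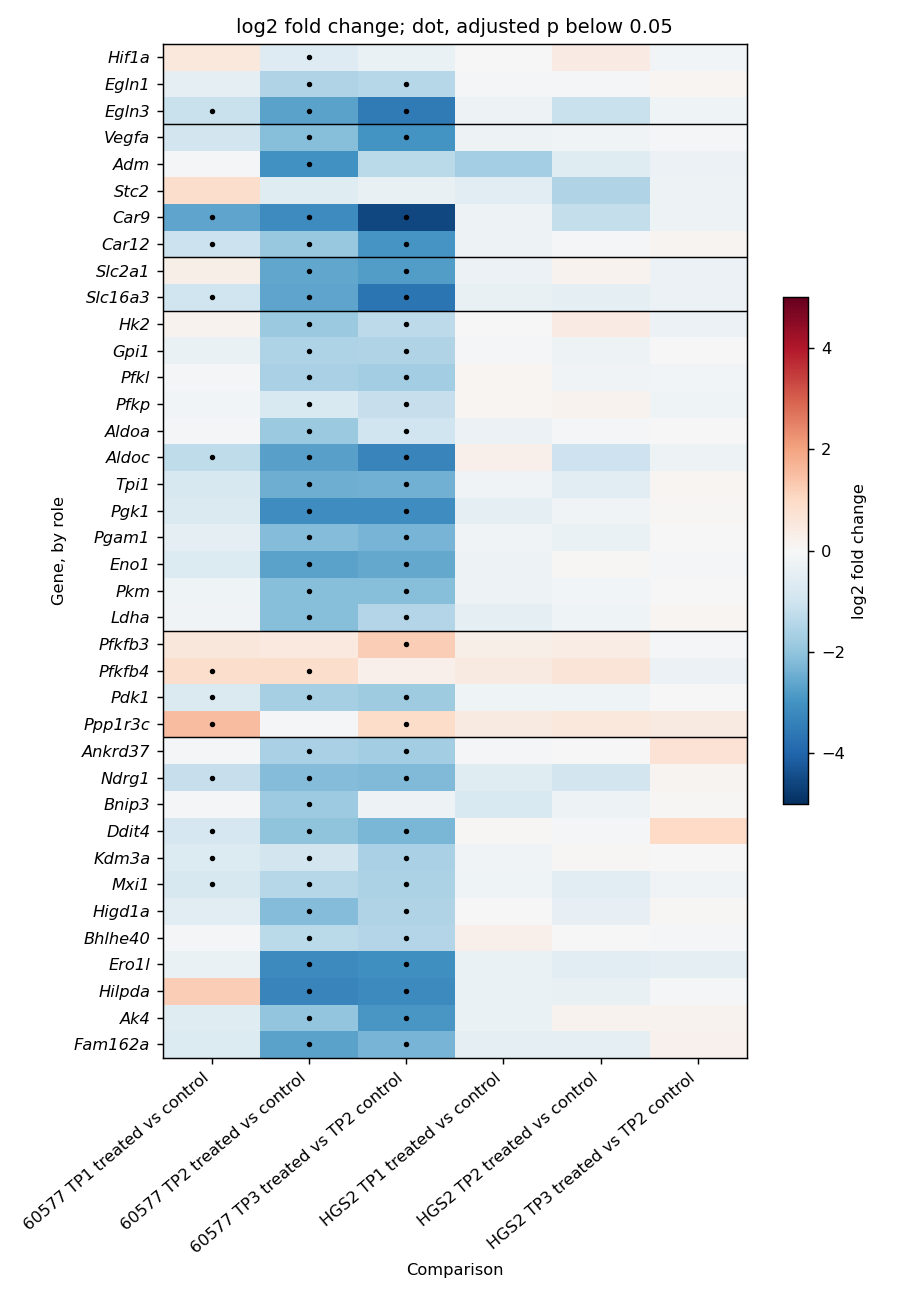
Log2 fold change of each of the 38 genes (rows, grouped by role from oxygen sensing at the top to mitochondria, stress and transcription at the bottom) in 3 comparisons of 60577 and 3 of HGS2 (columns); blue is lower, red is higher, and dots mark adjusted p below 0.05. The columns of 60577 TP2 and TP3 are mostly blue with dots on 35 and 33 genes, and the HGS2 columns carry no dots.

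Among the sensors, Hif1a read 110, 204 and 112 CPM in the TP2 controls and 127, 95.5, 75.3 and 74.2 CPM in the treated tumors. The groups overlapped; the change of -0.63 (SE 0.23, adjusted p = 0.0275) became -0.26 (adjusted p = 0.294) without control replicate 2. Egln3 read 137, 378 and 104 CPM in controls against 23.9 to 40.4 CPM after treatment. Every treated tumor was below every control, and Egln3 fell by 2.69 (SE 0.35, adjusted p = 2.95e-05), or by 1.90 without that control. Egln1, the main oxygen sensor of most cells, fell by 1.49 (SE 0.24, adjusted p = 0.000159), or by 0.93 without that control.

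Of the secreted factors and carbonic anhydrases, 4 of 5 were lower. Vegfa read 367, 1138 and 335 CPM in controls and 82.6, 136, 199 and 156 CPM in treated tumors. All 4 treated tumors were below all controls; Vegfa fell by 2.12 (SE 0.39, adjusted p = 0.000376), and by 1.301 without control replicate 2 (adjusted p = 0.00234). Adm, the vasodilator peptide adrenomedullin, was low throughout, at 5.44, 27.4 and 3.21 CPM in controls and 0.787 to 2.04 CPM after treatment. It fell by 3.02 (SE 0.63, adjusted p = 0.00102), or by 1.53 without control replicate 2 (adjusted p = 0.0154). Car9 read 32.0, 87.2 and 46.3 CPM in controls and 3.59, 8.57, 7.23 and 5.74 CPM in treated tumors. Its decrease of 3.15 (SE 0.37, adjusted p = 1.13e-05) was 2.65 without control replicate 2. Stc2, a secreted glycoprotein, did not pass (-0.59, SE 0.35, adjusted p = 0.153) and turned to 0.29 without control replicate 2 (adjusted p = 0.263).

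The transporters were lower in every treated tumor. Slc2a1 read 88.1, 381 and 63.5 CPM in controls and 28.3, 32.0, 26.6 and 32.8 CPM in treated tumors. It fell by 2.59 (SE 0.46, adjusted p = 0.000282), or 1.35 without control replicate 2 (adjusted p = 0.000503). Slc16a3, with 2 motif copies in its promoter above, read 261, 568 and 221 CPM in controls and 50.6, 74.7, 52.0 and 52.1 CPM in treated tumors. It fell by 2.63 (SE 0.26, adjusted p = 3.96e-06), or 2.08 without that control.

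Along glycolysis the decreases ran from the entry of glucose to lactate. Hk2, the hexokinase that traps glucose in the cell, read 90.8, 278 and 62.4 CPM in controls and 39.7, 37.1, 37.1 and 47.7 CPM in treated tumors. It fell by 1.85 (SE 0.38, adjusted p = 0.000951), or 0.93 without control replicate 2. Aldoa read 728, 1519 and 615 CPM in controls and 345, 316, 162 and 239 CPM in treated tumors, a decrease of 1.86 (SE 0.29, adjusted p = 9.73e-05). For neither gene did the groups overlap. Pgk1, which makes the first ATP of the pathway, read 408, 1196 and 353 CPM in controls and 91.4, 97.8, 48.9 and 68.2 CPM in treated tumors. It fell by 3.11 (SE 0.36, adjusted p = 1.24e-05), and by 2.32 without control replicate 2 (adjusted p = 1.27e-05). Ldha, which turns pyruvate into lactate, read 426, 962 and 319 CPM in controls and 182, 153, 79.9 and 106 CPM in treated tumors. All treated values were below all controls, with a decrease of 2.14 (SE 0.32, adjusted p = 7.83e-05) that was 1.52 without control replicate 2. Among the other 8 enzymes Pfkp, the platelet phosphofructokinase, fell by 0.74 (-0.11 without that control) and Gpi1, the isomerase after hexokinase, by 1.53. Tpi1, the triose phosphate isomerase, fell by 2.44 and Eno1, the enolase, by 2.69.

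The regulators of glucose use did not move together. Pdk1, which keeps pyruvate out of mitochondria, read 53.9, 125 and 71.4 CPM in controls and 23.96, 31.66, 25.14 and 26.61 CPM in treated tumors, and fell by 1.65 (SE 0.21, adjusted p = 2.55e-05). Pfkfb4 was higher in all 4 treated tumors (17.5 to 32.7 CPM) than in all 3 controls (12.72 to 17.01 CPM), by 0.86 (SE 0.19, adjusted p = 0.00166). Its relative Pfkfb3 changed by 0.48 (adjusted p = 0.13), and by 0.92 without control replicate 2, where it passed (adjusted p = 0.00519). Ppp1r3c was at -0.06 (SE 0.23, adjusted p = 0.851), and at 0.28 without control replicate 2 (adjusted p = 0.296).

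In the mitochondrial, stress and transcription group the largest decreases were those of Hilpda and Ero1l, the 2 members most raised in control replicate 2. Hilpda read 11.5, 139 and 10.8 CPM in controls, and 6.81, 6.17, 4.03 and 5.30 CPM in treated tumors. Its decrease of 3.29 (SE 0.72, adjusted p = 0.00134), the largest of the 38, was 0.998 without control replicate 2 (adjusted p = 0.0392). Ero1l, the oxidase that supports disulfide bonds in secreted proteins, fell by 3.17 (SE 0.54, adjusted p = 0.000211), and by 1.59 without it. Fam162a, a mitochondrial protein, fell by 2.66 (SE 0.41, adjusted p = 9.77e-05) and Higd1a, which stabilizes the respiratory chain, by 2.18 (SE 0.31, adjusted p = 4.98e-05). Bnip3, a mitochondrial protein of mitophagy, read 49.5, 202 and 46.2 CPM in controls and 54.6, 25.1, 13.3 and 19.4 CPM in treated tumors. The groups overlapped, and its change of -1.83 (SE 0.48, adjusted p = 0.00486) did not pass without control replicate 2 (-0.76, adjusted p = 0.104). Ankrd37, a short ankyrin repeat protein, read 5.60, 17.4 and 3.91 CPM in controls and 1.61, 2.26, 2.85 and 5.22 CPM in treated tumors. Here too the groups overlapped, with a change of -1.61 (SE 0.53, adjusted p = 0.0165), but -0.68 without that control (adjusted p = 0.251).

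**Figure D3:**
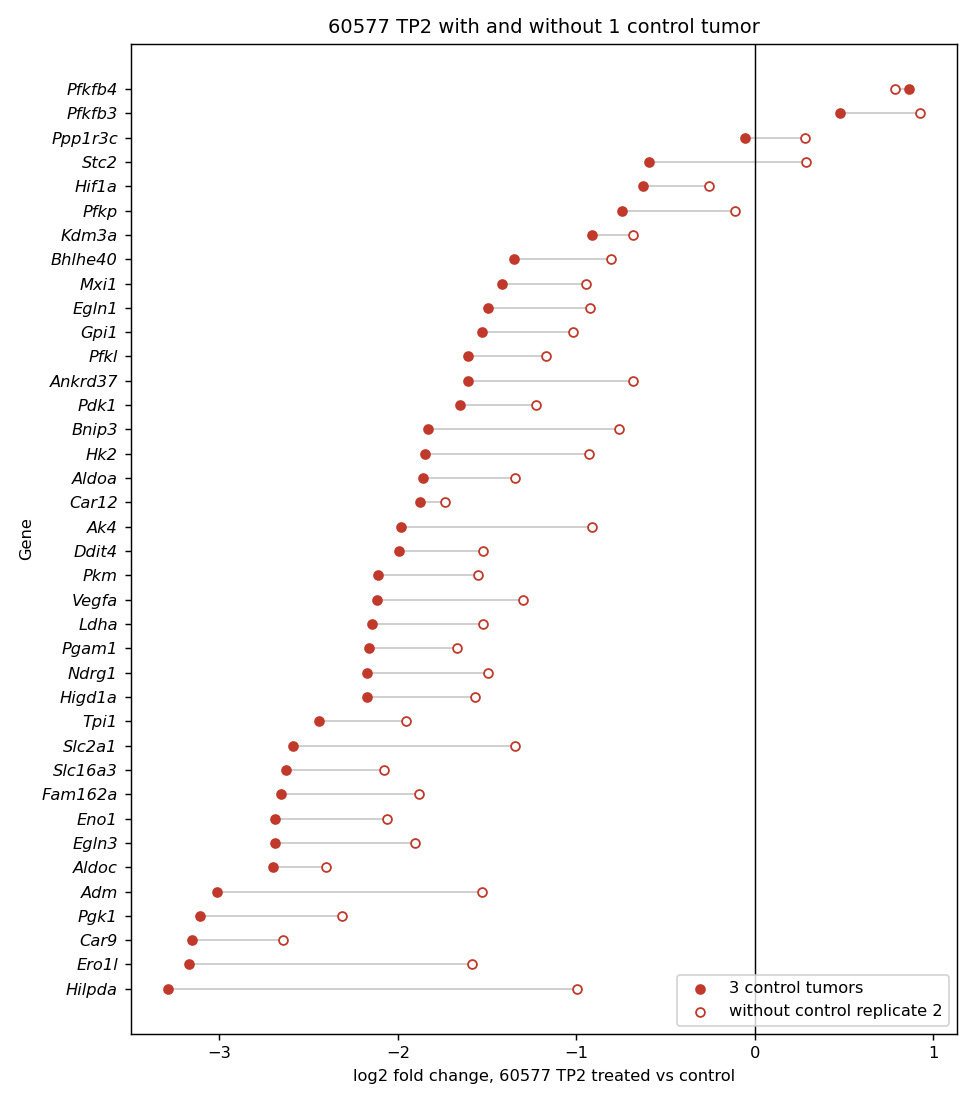
Log2 fold change of each gene (rows) in 60577 TP2 treated against control tumors, with all 3 controls (filled) and without control replicate 2 (open). For most genes the open point lies nearer to 0; Hilpda moves from -3.29 to -0.998, while Car9 moves from -3.15 to -2.65.

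Markers of other cell types moved with these decreases. Of all genes tested, 16.2%, 29.2% and 26% were lower at TP1, TP2 and TP3, and 17.1%, 29.2% and 25.3% were higher. At TP2 a count of 2 of 7 markers is near these shares. In 60577 all 9 tested epithelial markers were lower at TP2 and at TP3 and 8 were lower at TP1. Their summed level was 2198 to 3448 CPM in the 6 controls and 435.2 to 991.4 CPM in the 11 treated tumors. The 6 markers of dividing cells were lower at all 3 times. Of 8 adipocyte markers 6 were higher at TP1, 7 at TP2 (6 without TP2 control replicate 2) and 8 at TP3. Their sums were 168.7 to 253.5 CPM in controls and 2775 to 3651 CPM at TP3. All 5 B cell markers were higher at TP2 and TP3. Of 8 fibroblast markers 6, 4 and 5 were higher at TP1, TP2 and TP3, with 2 at TP2 and 4 at TP3 without control replicate 2. Of 7 macrophage markers 2, 2 and 4 were higher, with 2 at TP3 without that control. Of 6 T cell markers 2, 5 and 6 were higher, with 4 at TP2 and 5 at TP3 without that control. The 4 tested neutrophil markers were higher at TP1, and 3 of them were lower at TP2 and TP3 (2 at each without that control). Of 7 endothelial markers 2 were lower at each time (3 at TP2 and TP3 without that control), and 2 others were higher at TP3. Of 5 erythroid markers 4 were lower at TP2, with sums of 202.9 to 724.6 CPM in TP2 controls and 25.79 to 108.5 CPM in TP2 treated tumors, and 1 was lower at TP3 (0 without that control). All 6 acinar markers were lower at TP2, with 10.11 to 1373 CPM in TP2 controls, and 0 at TP3 (3 without that control). The part of these shifts in the result was not tested.

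Against TP2 controls, the 60577 tumors of TP3 had 31 of the 38 genes lower and 2 higher, with 26% of all genes tested lower and 25.3% higher, and the members' median was -1.75. Without TP2 control replicate 2, 27 were lower and 2 higher, the median was -1.32, and Aldoa, Ankrd37, Hilpda and Hk2 no longer passed. Car9, Slc16a3 and Egln3 had the largest decreases. Car9 read 2.27, 1.40, 3.62 and 2.15 CPM at TP3, a decrease of 4.54 (SE 0.39, adjusted p = 4.25e-07), and of 4.04 without that control. Slc16a3 read 26.7, 29.2, 30.3 and 25.95 CPM and fell by 3.64 (SE 0.27, adjusted p = 1.23e-07). Egln3 read 16.4, 16.8, 19.6 and 18.9 CPM and fell by 3.52 (SE 0.37, adjusted p = 2.44e-06). For these 3 genes every TP3 tumor was below every TP2 control, as for 29 of the 38 members and 29.2% of all genes tested. Aldoc fell by 3.29 (SE 0.32, adjusted p = 1.32e-06). Hilpda fell by 3.19 (SE 0.71, adjusted p = 0.00159), but by 0.90 without control replicate 2 (adjusted p = 0.0637).

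Vegfa at TP3 read 100, 81.2, 73.5 and 57.2 CPM, lower than controls by 2.97 (SE 0.40, adjusted p = 2.43e-05). Slc2a1 read 25.2, 29.1, 24.4 and 24.2 CPM (-2.79, SE 0.46, adjusted p = 0.000141; -1.54 without control replicate 2) and Pgk1 71.1, 76.8, 72.0 and 79.0 CPM (-3.12, SE 0.36, adjusted p = 7.42e-06). For both genes, and for Vegfa, every TP3 tumor was below every TP2 control. Pfkfb3, which raises the activator of phosphofructokinase, was higher: 186, 151, 142 and 124 CPM against 55.0, 99.3 and 41.4 CPM, by 1.21 (SE 0.27, adjusted p = 0.00152). Ppp1r3c was higher too, by 0.94 (SE 0.23, adjusted p = 0.00352). Hif1a (-0.34, adjusted p = 0.226), Adm (-1.36, adjusted p = 0.0674), Stc2 (-0.36, adjusted p = 0.409), Bnip3 (-0.24, adjusted p = 0.707) and Pfkfb4 (0.24, adjusted p = 0.303) did not pass. Without control replicate 2 the first 4 of these turned, to 0.03 for Hif1a, 0.13 for Adm, 0.52 for Stc2 and 0.83 for Bnip3, none of which passed. Bnip3 read 67.0 to 90.8 CPM at TP3, below that control at 202 CPM but above the other 2 controls. Over the 3 comparisons of treated with control 60577 tumors, of which TP2 and TP3 share their controls, 10 members were lower in all 3, 21 in 2 and 3 in 1. The 4 that were lower in none were Stc2, Pfkfb3, Pfkfb4 and Ppp1r3c. Of all genes tested, 16.2%, 29.2% and 26% were lower at TP1, TP2 and TP3, and the share lower in all 3 was not counted. Some of the calls at TP2 and TP3 were lost without TP2 control replicate 2, and these counts were not made again without it.

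**Figure D4:**
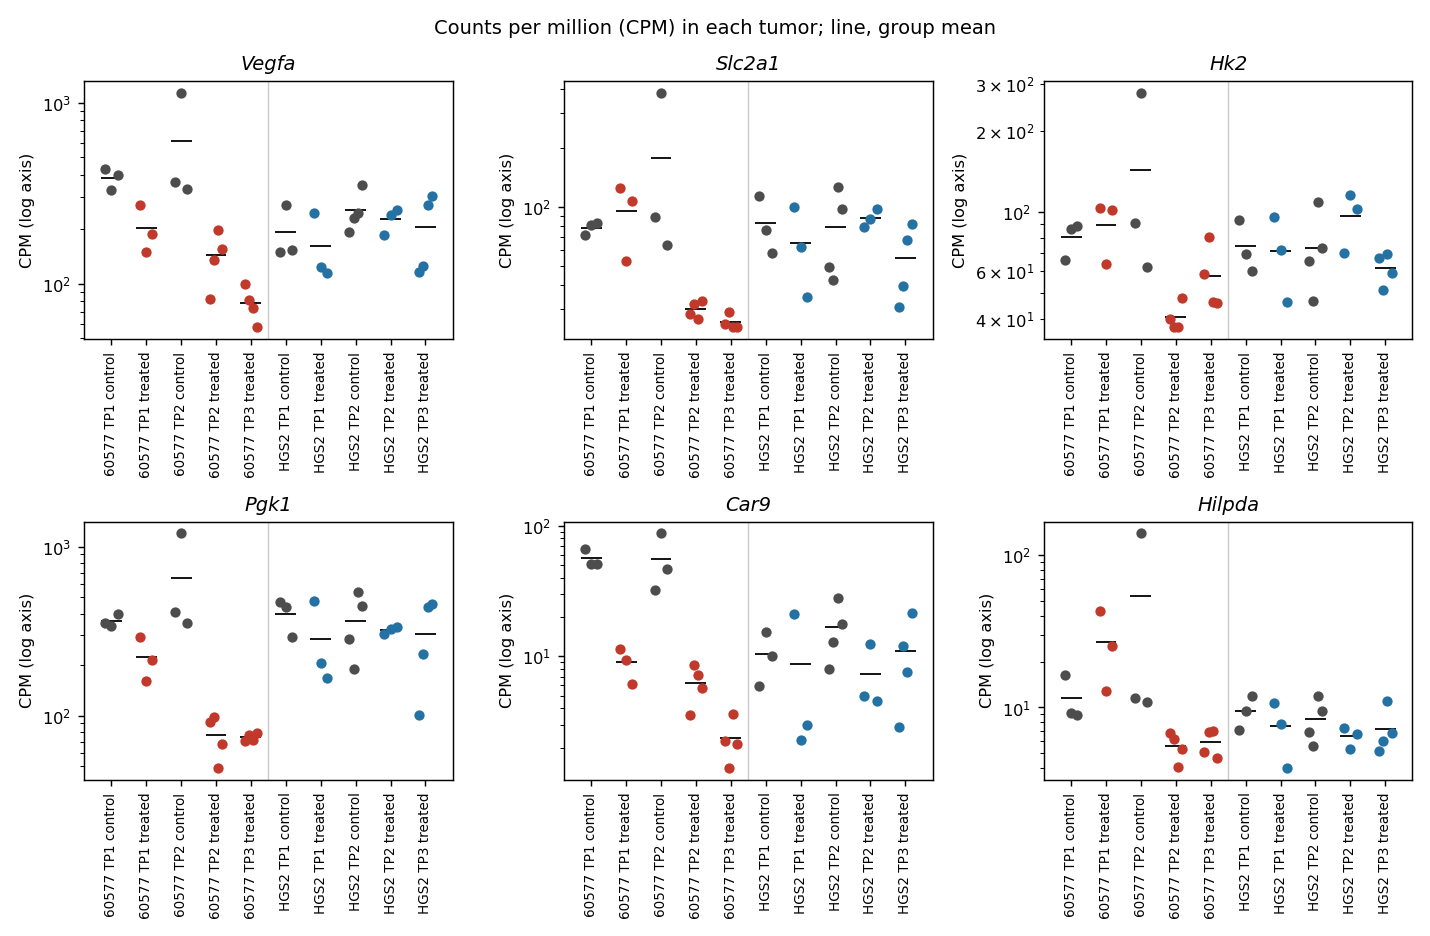
CPM (log axis) of 6 genes in each of the 34 tumors, by group (x axis); points are tumors, lines are group means; gray, control; red, treated 60577; blue, treated HGS2. The high gray point in 60577 TP2 control is replicate 2, at 1138 CPM for Vegfa and 139 CPM for Hilpda. Red points at TP2 and TP3 lie below the gray ones of 60577 in all 6 panels except for Hk2 at TP3. There 80.3 CPM in 1 tumor exceeds the lowest 60577 control.

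Within treated 60577 tumors, 17 genes fell and 0 rose from TP1 to TP2, against 9.86% lower and 9.43% higher of all genes tested. Of these 17, 10 were glycolytic enzymes, including Pgk1 (-1.54, SE 0.35, adjusted p = 0.0115) and Pkm, the pyruvate kinase (-1.33, SE 0.27, adjusted p = 0.00722). Hilpda (-2.29, SE 0.70, adjusted p = 0.0356), Slc2a1 (-1.68, SE 0.45, adjusted p = 0.021) and Slc16a3 (-1.32, SE 0.26, adjusted p = 0.00601) were lower too. This count moved with single tumors: without TP1 treated replicate 1 only 2 passed, Pkm and Slc16a3. Without TP1 treated replicate 3, TP2 treated replicate 3 or TP2 treated replicate 4 the counts were 7, 10 and 7. The share of all genes tested that passed fell too. It was 19.3% with all tumors and 3.11%, 6.38%, 9.72% and 7.86% in these fits, in that order.

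From TP2 to TP3, 5 genes rose and 5 fell, with 16.2% of all genes tested higher and 18.8% lower. The genes that rose were Adm (1.66, SE 0.59, adjusted p = 0.042), Bnip3 (1.60, SE 0.46, adjusted p = 0.0175), Ppp1r3c (0.99, SE 0.21, adjusted p = 0.00522), Aldoa (0.87, SE 0.27, adjusted p = 0.0224) and Pfkfb3 (0.74, SE 0.24, adjusted p = 0.0299). Bnip3 read 89.0, 90.8, 90.1 and 67.0 CPM at TP3, each above the highest TP2 treated value of 54.6 CPM. Such separation held for 6 of the 38 members and 14.6% of all genes tested. Those that fell were Car9 (-1.39, SE 0.36, adjusted p = 0.0109), Car12 (-1.06, SE 0.19, adjusted p = 0.00253), Slc16a3 (-1.01, SE 0.24, adjusted p = 0.00826), Kdm3a, a histone demethylase (-0.72, SE 0.17, adjusted p = 0.00827), and Pfkfb4 (-0.62, SE 0.18, adjusted p = 0.0169). Without TP2 treated replicate 3 the count was 6 and without TP2 treated replicate 4 it was 5. Of all genes tested, 35% passed with all tumors, and 17.6% and 19.1% in these fits. Between TP1 and TP2 controls no member passed with edgeR, with 0% of all genes tested higher and 0% lower, and 14 members had an unadjusted p under 0.05. Neither limma-voom nor DESeq2 called a member, while DESeq2 called 0.66% of all genes. The log2 change was above 0 for 36 of the 38 members, and without TP2 control replicate 2 the median went from 0.64 to 0.007, with 0 members at an unadjusted p under 0.05.

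HGS2 gave no call. In each of its 6 comparisons (treated against control at TP1 and TP2, TP3 treated against TP2 control, and the steps between times in control and in treated tumors) 0% of all genes tested were higher and 0% lower, so 0 of 38 members passed. At an unadjusted p under 0.05 stood 1 member at TP1, 1 at TP2, 1 at TP3, 0 for both steps between TP1 and TP2 and 4 for treated TP3 against TP2. Of all genes tested, 152 to 1690 had an unadjusted p under 0.05. DESeq2 and limma-voom also called 0 members in all 6, while DESeq2 called 1 to 144 of all genes. The members' median log2 fold change was -0.23 at TP1, -0.18 at TP2 and -0.05 at TP3. Single libraries moved these: at TP1 the median was -0.62 without treated replicate 1, with 12 members at an unadjusted p under 0.05, -0.062 without treated replicate 2 and 0.022 without treated replicate 3. With 1 library left out it ran from -0.252 to -0.071 at TP2 and from -0.238 to 0.146 at TP3. Without the 3 libraries with pancreatic markers the medians were -0.27, -0.24 and 0.03, again with 0 calls.

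The spread between HGS2 tumors was wide, so the lack of calls does not show a lack of change. Pgk1 read 470, 440 and 293 CPM in TP1 controls and 477, 204 and 168 CPM in TP1 treated tumors. At TP2 it read 283, 190, 540 and 447 CPM in controls and 302, 324 and 336 CPM after treatment. The TP1 groups overlapped and the TP2 treated values lay inside the range of their controls, with a TP2 change of -0.18 (SE 0.40, adjusted p = 0.918). Slc2a1 read 49.3, 42.1, 126 and 97.7 CPM in TP2 controls and 79.1, 87.0 and 97.8 CPM in TP2 treated tumors. Vegfa read 192, 232, 247 and 352 CPM and 187, 239 and 254 CPM in the same groups. For both the groups overlapped, with changes of 0.16 (SE 0.41) and -0.18 (SE 0.36). Car9 read 8.04, 12.9, 28.1 and 17.7 CPM in TP2 controls and 4.97, 12.4 and 4.59 CPM in TP2 treated tumors (-1.18, SE 0.73, adjusted p = 0.695).

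Other members in HGS2 were as varied. At TP2, Hif1a read 130, 111, 182 and 142 CPM in controls and 192, 142 and 224 CPM after treatment. Ldha read 382, 247, 562 and 390 CPM in controls and 349, 326 and 357 CPM after treatment. Neither separated the groups. At TP3, Slc16a3 read 11.3, 107, 229 and 216 CPM and Egln3 12.1, 17.8, 114 and 168 CPM. The lowest value of each belongs to replicate 1, in which 27 of the 38 genes were the lowest of the 4, against 38.2% of all genes tested. In this library Aldoc had no count and adipocyte markers summed to 2038 CPM. Among TP1 treated tumors, replicate 1 had the highest level of 33 genes, for instance Egln3 at 104 CPM against 18.5 and 39.4 CPM. Of all genes tested, 41.4% were highest in it. The smallest unadjusted p belonged to Adm at TP1 (-1.71, SE 0.59, adjusted p = 0.999), to Pfkfb4 at TP2 (0.63, SE 0.27, adjusted p = 0.633) and to Ddit4 at TP3 (1.01, SE 0.36, adjusted p = 1).

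Whether HGS2 and 60577 responded differently was tested in 1 fit over all tumors. At TP1, 0 members passed, against 0.616% of all genes tested higher and 1.16% lower, 1 member had an unadjusted p under 0.05, and DESeq2 and limma-voom also called 0. At TP2 the response of 22 members was higher (less negative) in HGS2 than in 60577 and of 0 lower, against 6% and 4.33% of all genes tested. The differences were largest for Pgk1 (2.91, SE 0.55, adjusted p = 0.00437), Hilpda (2.89, SE 0.81, adjusted p = 0.0271), Eno1 (2.73, SE 0.47, adjusted p = 0.00318), Slc2a1 (2.73, SE 0.64, adjusted p = 0.0115) and Ero1l (2.56, SE 0.76, adjusted p = 0.0333). Of the 22, 10 were glycolytic enzymes. Without 60577 TP2 control replicate 2 only 5 of the 22 still passed: Slc16a3 (1.63, adjusted p = 0.0344), Aldoa (1.23, adjusted p = 0.0426), Pgk1 (2.13, adjusted p = 0.0264), Eno1 (2.12, adjusted p = 0.0184) and Pkm (1.42, adjusted p = 0.0387). The members' median then moved from 1.75 to 1.003.

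In control tumors, TP1 and TP2 averaged, 18 of the 38 genes were lower in HGS2 than in 60577 and 2 were higher, while 23.4% of all genes tested were lower and 28.1% higher. The HGS2 tumors had also grown longer, in another strain, and these differences cannot be told apart from that of the cell lines. Car9 read 51.2 to 66.8 CPM at TP1 and 32.0 to 87.2 CPM at TP2 in 60577, but 5.90 to 15.4 CPM and 8.04 to 28.1 CPM in HGS2. The models did not overlap, and Car9 was lower in HGS2 by a log2 difference of -2.08 (SE 0.43, adjusted p = 0.000281). Car12 (-1.60, SE 0.38, adjusted p = 0.00114), Ndrg1 (-1.53, SE 0.30, adjusted p = 0.000164), Hilpda (-1.48, SE 0.42, adjusted p = 0.00527) and Kdm3a (-1.46, SE 0.12, adjusted p = 5.42e-10) were lower as well. Pfkfb4 (0.73, SE 0.18, adjusted p = 0.00138) and Pfkfb3 (0.67, SE 0.19, adjusted p = 0.00553) were higher. Of the 12 glycolytic enzymes 7 were lower in HGS2, by -0.54 (Aldoa, SE 0.19, adjusted p = 0.0208) to -1.22 (Aldoc, SE 0.39, adjusted p = 0.0103), and the median of the 12 was -0.564. The 5 that did not pass were Hk2, Pgk1 (-0.35, SE 0.28), Pgam1, Pkm (-0.19, SE 0.21) and Ldha (-0.19, SE 0.22). Without 60577 TP2 control replicate 2, Aldoa, Eno1, Gpi1 and Pfkl no longer passed, and Pgk1, Pkm and Ldha turned to 0.04, 0.09 and 0.12. Without that control 11 members were lower and 5 higher, and Hilpda (-0.34, adjusted p = 0.315) no longer passed. Summed epithelial markers were 51.49 to 1117 CPM in HGS2 controls and 2198 to 3448 CPM in 60577 controls, and 6 of 9 were lower. All 8 fibroblast markers were higher in HGS2, with sums of 27590 to 136900 CPM against 5764 to 10040 CPM. The cell lines, cultured without host cells, differed in these markers too. Fibroblast markers summed to 14730 and 32260 CPM in HGS2 cells and 980.2 and 2134 CPM in 60577 cells, with 6 of 8 higher. Epithelial markers summed to 1768 and 2000 CPM against 5265 and 5689 CPM, with 6 of 9 lower. Of all genes tested in the lines, 9.1% were higher and 9.82% lower. In HGS2 control tumors all 7 macrophage markers, all 6 acinar markers, 4 of 6 T cell markers, 3 of 8 adipocyte markers and 2 of 5 B cell markers were higher too. Acinar markers summed to 57250 CPM in TP1 control replicate 3 and 107400 CPM in TP2 control replicate 2. The other HGS2 controls held 8.984 to 1345 CPM of them, and the 60577 controls 5.026 to 1373 CPM. The part of these differences was not tested.

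**Figure D5:**
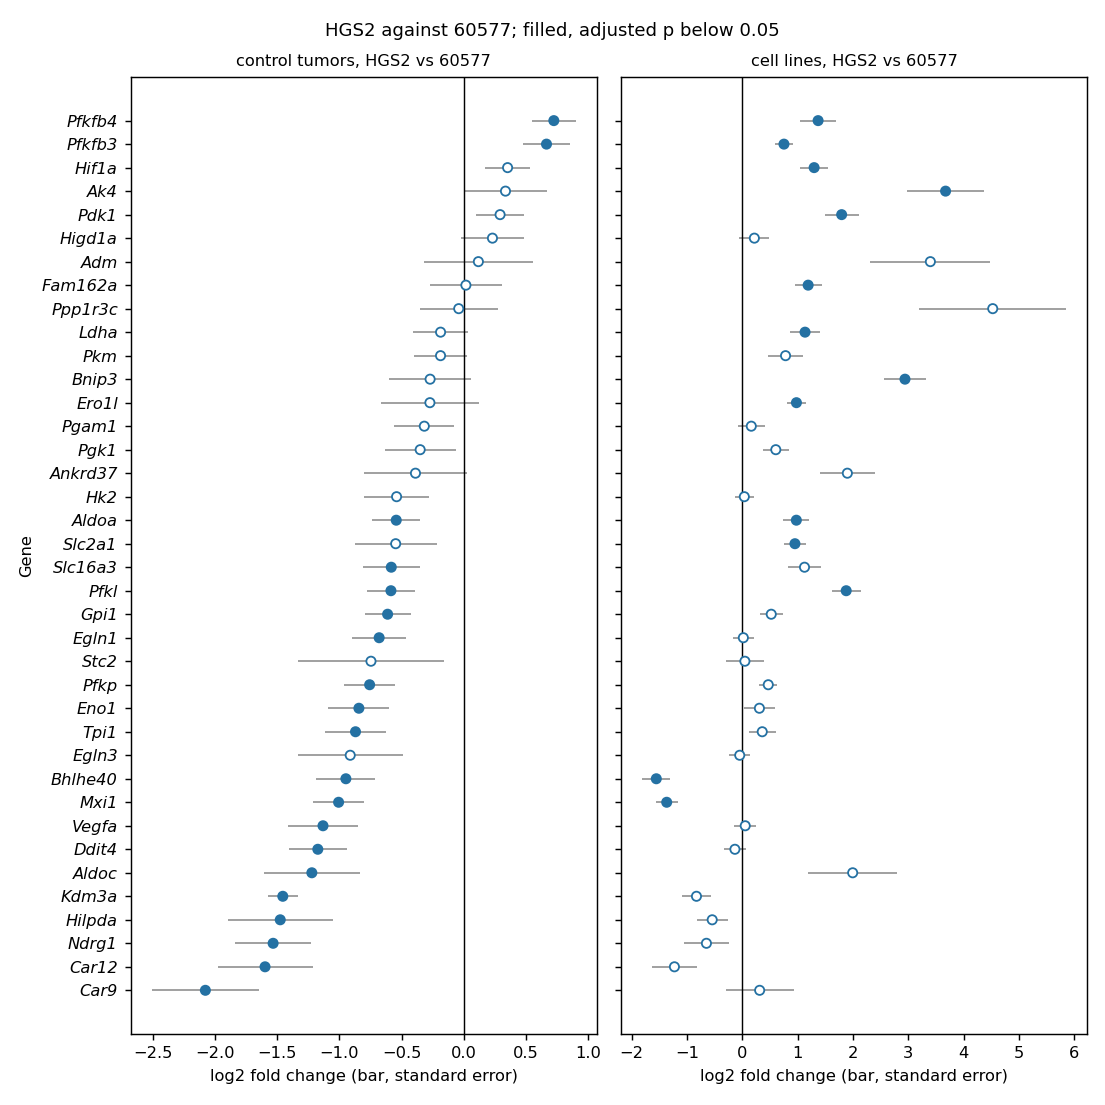
Log2 fold change of HGS2 against 60577 for each gene (rows) in control tumors (left) and in cultured cell lines (right), on separate x scales; bars are SEs and filled points have adjusted p below 0.05. Car9 lies lowest in tumors at -2.08, while in the cell lines it is at 0.31 and unfilled.

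In culture, without host cells, 12 of the 38 genes were higher in HGS2 than in 60577 cells and 2 were lower, against 9.1% and 9.82% of all genes tested. Bnip3 read 4.44 and 6.60 CPM in 60577 cells and 54.4 and 30.6 CPM in HGS2 cells, a difference of 2.94 (SE 0.38, adjusted p = 0.00989). Ak4, a mitochondrial adenylate kinase, was higher by 3.68 (SE 0.69, adjusted p = 0.0239) and Pfkl, the liver-type phosphofructokinase, by 1.88 (SE 0.27, adjusted p = 0.0124). Pdk1 was higher by 1.80 (SE 0.31, adjusted p = 0.0192), and Pfkfb4 by 1.37 (SE 0.33, adjusted p = 0.0428). Hif1a read 133 and 128 CPM in 60577 cells and 383 and 260 CPM in HGS2 cells (1.298, SE 0.26, adjusted p = 0.027). Ldha, at 383 and 270 against 689 and 742 CPM, was higher by 1.13 (SE 0.26, adjusted p = 0.0401). Bhlhe40, a clock and hypoxia repressor (-1.56, SE 0.26, adjusted p = 0.0176), and Mxi1, an antagonist of Myc (-1.37, SE 0.20, adjusted p = 0.0136), were lower.

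Several members did not differ between the lines beyond their spread. Vegfa (81.3 and 64.8 against 71.8 and 79.7 CPM) differed by 0.05 (SE 0.20), Hk2 (46.6 and 48.7 against 45.7 and 52.0 CPM) by 0.04 (SE 0.17), and Egln3 (34.2 and 29.5 against 32.5 and 29.2 CPM) by -0.05 (SE 0.19). Car9 (20.6 and 9.05 against 27.4 and 9.34 CPM) spread widely within each line. Adm, Ppp1r3c and Aldoc were each far higher in HGS2 replicate 1 than in replicate 2, and none passed. Without 60577 cell line replicate 1 the number of members that passed fell from 14 to 4, and without replicate 2 to 2, in fits that take the lone culture to vary like the others.

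Compared per kilobase of exon (FPKM), several glycolytic enzymes stood highest. In 60577 TP1 controls Pgam1 averaged 253 FPKM, Tpi1 238, Pkm 235, Aldoa 206, Eno1 174, Pgk1 162 and Ldha 108 FPKM. Ppp1r3c averaged 1.47 FPKM, Stc2 1.71, Adm 2.26 and Pfkfb4 3.30 FPKM, the lowest of the 38. Tumors and cell lines were normalized separately, so their levels are set side by side without a test. Vegfa averaged 89.9 FPKM in 60577 TP1 controls and 17.1 FPKM in 60577 cells, and Egln3 48.9 and 12.0 FPKM. Pkm (274 FPKM) and Eno1 (217 FPKM) in 60577 cells were near their tumor levels. Eno1 reads may be divided with its near copy Eno1b, which read 24.55 to 260.9 CPM in 60577 tumors and 0.7356 to 6.13 CPM in HGS2 tumors. With the counts of both summed, the TP2 change in 60577 was -2.62 and the control tumor difference -0.97, against -2.69 and -0.84 for Eno1 alone. Pseudogene copies of Aldoa, Pgk1, Pgam1 and Ldha could likewise take reads.

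Other genes of the pathway were taken from lists of its further parts. Of 24 tested further HIF targets in 60577, 17 were lower and 2 higher at TP2, and 15 were lower and 2 higher at TP3. Of all genes tested, 29.2% were lower and 29.2% higher at TP2, and 26% lower and 25.3% higher at TP3. Mif, a cytokine (-2.59, SE 0.31, adjusted p = 1.4e-05), and P4ha2, a collagen prolyl hydroxylase (-2.08, SE 0.33, adjusted p = 0.000124, and -1.34 without TP2 control replicate 2), were among the lower ones at TP2, and Rora, a nuclear receptor, was higher (1.33, SE 0.14, adjusted p = 4.87e-06). Without TP2 control replicate 2 the counts were 11 lower and 2 higher at TP2 and 8 lower and 2 higher at TP3. Of all genes tested, 24.5% were then lower and 24% higher at TP2, and 22.5% lower and 21.3% higher at TP3. Of 15 tested further glycolysis genes, 9 were lower at each time, with 1 higher at TP2 and 2 higher at TP3. Without that control 7 were lower at TP2 and 8 at TP3, with 1 higher at each. Gapdh, a middle enzyme of glycolysis, changed by -2.57 at TP2 (SE 0.34, adjusted p = 2.77e-05), and by -1.91 without that control.

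Of the 8 genes of the HIF machinery, 3 were lower and 1 higher at TP2 and again at TP3. Without TP2 control replicate 2 the counts were 2 lower and 0 higher at TP2, and 3 lower and 1 higher at TP3. Epas1, which encodes HIF-2 alpha and is expressed strongly in vessels and fat, was higher at TP3 by 2.09 (SE 0.35, adjusted p = 0.000151), and by 1.82 without that control. Of 7 receptor genes for Vegfa and Adm, 2 were lower and 1 higher at TP2, and 2 lower and 4 higher at TP3. Without that control they were 3 lower and 1 higher at TP2, and 3 lower and 2 higher at TP3. Of all genes tested, 29.2% were lower and 29.2% higher at TP2, and 26% lower and 25.3% higher at TP3. The counts of machinery and receptor genes were not tested against these shares. Flt1, a Vegfa receptor, was lower at TP2 (-1.44, SE 0.16, adjusted p = 8.24e-06) and TP3 (-1.73, SE 0.16, adjusted p = 8.72e-07). Calcrl and Ramp2, which together form an adrenomedullin receptor, were higher at TP3 by 1.45 (SE 0.32, adjusted p = 0.00149) and 1.62 (SE 0.46, adjusted p = 0.00868). In HGS2 no gene of these lists passed at any time.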

How the data were processed

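RNA-seq was made from frozen omental tumors and cultured cells after ribosomal RNA depletion. Per the labels, the authors trimmed reads with Trim Galore 0.6.5, aligned them with STAR 2.7.0f to mm10 (GRCm38) and estimated counts per gene with RSEM, and the deposited values are these expected counts, with no normalization. Totals were 17839641 to 49299421 per tumor. The labels give groups and replicate numbers. The study describes replicate tumors as replicate mice. For the cultures nothing says that they were grown separately, so their p-values measure the spread between these samples, which may be technical.

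Expected counts were rounded, genes with at least 1 CPM in 25% of libraries were kept, and edgeR 4.0.16 (TMM, quasi-likelihood test) was fitted to the 5 tumor groups of a model, to all 10 groups for differences between models, and to the cell lines. Printed CPM use TMM factors over all 34 tumors or the 4 cultures; FPKM divides them by exon length (GENCODE M21). Alternatives used limma 3.58.1, DESeq2 1.42.0, other scalings, filters and samples. The code was tested on simulated data, with 100 genes changed by a log2 size of 1 and 100 by 2. For 60577 TP2 treated against control, 63 and 90 of them were recovered. For HGS2 TP2 the numbers were 23 and 62, and for the cell lines 7 and 74. Replicates were compared in pairs for duplicated libraries and all 44 pairs differed beyond counting noise. HGS2 TP3 treated replicate 1 was left out of the fits.

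The members and lists were chosen with earlier results of these data known. Named by rule were up to 5 members that passed in each direction with the largest change, 14 members given by sample, and promoters of up to 6 members with ACGTG and most comparisons passed, ties going to the largest change.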

Additional observations from a re-analysis of the deposited data

Results flagged for a closer look

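The response to chemotherapy at TP2 differed between the models, by an interaction term in edgeR's fit over all tumors, for 22 members (log2 response in HGS2 minus that in 60577). Among sensing, secreted and transport genes the differences were 1.37 for Egln1, 1.93 for Vegfa, 2.73 for Slc2a1 and 2.16 for Slc16a3. Among the enzymes they were 2.22 for Hk2, 1.28 for Gpi1, 1.43 for Pfkl, 1.74 for Aldoa, 1.87 for Tpi1, 2.91 for Pgk1, 1.81 for Pgam1, 2.73 for Eno1, 1.97 for Pkm and 1.93 for Ldha. Among the remaining members they were 1.42 for Pdk1, 1.94 for Ddit4, 0.94 for Kdm3a, 1.76 for Higd1a, 2.56 for Ero1l, 2.89 for Hilpda, 2.16 for Ak4 and 2.21 for Fam162a. Without 60577 TP2 control replicate 2, 5 of the 22 passed.

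In groups of 4 tumors, 11 of 152 sets of 4 values (1 set per gene and group) held a value apart from the other 3. The gap was large against the range of the 4 values, but some gaps were small in CPM. Dixon's test was used, where chance gives about 1 in 20 sets. In 60577 TP2 treated tumors Slc16a3 was highest in replicate 2 at 74.71 CPM, against 50.57 to 52.09 CPM. In 60577 TP3 treated tumors Hif1a was highest in replicate 2 (131.4 against 102.8 to 106.6 CPM) and Adm in replicate 1 (5.765 against 4.255 to 4.461 CPM). Pdk1 was highest in replicate 4 (28.34 against 22.84 to 23.13 CPM). In the same group Pfkl was lowest in replicate 3 (73.24 against 78.29 to 78.46 CPM). Ndrg1 was lowest in replicate 1 (125.6 against 137.1 to 138.8 CPM) and Bnip3 in replicate 4 (67.01 against 89.03 to 90.76 CPM). In HGS2 TP2 control replicate 2, which carries 107400 CPM of acinar markers, Stc2 was highest at 30.51 CPM against 0.856 to 2.387 CPM, Pfkfb3 lowest at 61.28 CPM and Pfkfb4 lowest at 17.42 CPM. In HGS2 TP3 treated replicate 1 Kdm3a was lowest at 27.73 CPM.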

How the results depend on the processing

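Of 270 alternative counts of members over the 16 comparisons, 254 stayed within 1.5 times the reported count. In every HGS2 comparison, between the 60577 controls and for the model difference at TP1, the count was 0 in all settings. These counts of 0 are among the 254 and say nothing of how stable the other comparisons are. Of the alternative values of members that had passed, 2568 passed again, 243 no longer passed and 0 changed sign. For 60577 TP1 the count of 12 became 22 with only the groups compared, and 6 to 12 with a library left out. For treated 60577 TP2 against TP1 the count of 17 became 11 with the replicate block and 9 with only the groups compared, and 2 to 20 with a library left out. The share of all genes tested that passed there was 19.3% in the reported fit, 9.4% with the block and 1.99% with only the groups compared. For treated 60577 TP3 against TP2 the leave-out counts were 5 to 14, against 10. For the model difference at TP2 they were 5 to 26, against 22, the lowest without 60577 TP2 control replicate 2. For the cell lines the count of 14 became 22 with no filter on low counts, 23 with DESeq2 and 2 to 19 with a library left out. The cause was not tested.

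Nothing in the labels ties same-numbered tumors together. Their deviations from the group means correlated between -0.374 and 0.38 in 60577 and between -0.521 and 0.435 in HGS2. Such correlations cannot exclude a pairing, and the reported fits assumed none. Beyond the count above, the replicate block moved no count by over 1.5 times. The offset for length and GC content moved the median of all genes by up to -0.15 (60577 TP3), and the members' median there was -1.92. The alternatives without the 3 HGS2 libraries, with the controls of TP1 and TP2 together (35 and 33 members at 60577 TP2 and TP3) and with Eno1b summed were chosen after seeing the data. Changes smaller than the spread between tumors were not detectable.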
